A study of Mus musculus with 6 samples.

Results

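The comparison described here is that of regorafenib with its control in macrophages polarized by IFN-γ and LPS (M1). Bone marrow-derived macrophages (BMDMs) of BALB/c mice were grown for 7 days in 20% L929-conditioned medium, which supplies CSF-1. They were then polarized for 24 hours with 20 ng/mL of IFN-γ plus LPS at 50 ng/mL. Regorafenib (1 µM), an oral inhibitor of several kinases that include VEGF, PDGF and CSF-1 receptors and KIT, was added 1 hour before the cytokines, and the control received the solvent (DMSO). The mice were 6 to 8 weeks old and carried no engineered allele that the study names. The members are the genes with at least 10 counts in 1 of the 2 M1 libraries, 13440 of the 54446 genes in the table, and the 2 libraries are among 6 of the series. The other 4 libraries come from BMDMs without polarization (M0) or polarized with IL4 (20 ng/mL, M2), each with control or regorafenib.

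IFN-γ acts through JAK kinases and STAT factors, and LPS acts through Toll-like receptor 4 to NF-κB, MAP kinases and interferon regulatory factors. Together they drive macrophages to make nitric oxide, IL-12, TNF and chemokines, to raise antigen presentation and to shift energy production to glycolysis. IL-10 and IL-1 receptor antagonist belong to the programs that restrain this response or favor repair.

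There was 1 library per condition, so no difference below has a replicate check and none was tested. Counts were scaled with TMM factors, which make libraries of different depth and composition comparable. The log2 ratio of regorafenib to control is given with a 95% interval from the 2 counts of a gene, and the interval covers counting error only. A gene is called past 2-fold when its absolute log2 ratio is at least 1 and its interval lies on 1 side of 0. A pair of counts is always given with the control first. The libraries hold 31498101 and 28546104 counts, and with the TMM factors the same count in both corresponds to a log2 ratio of 0.10. Depth over the 6 libraries lay between 25359309 and 34898342 counts. Mitochondrial genes held 0.961% and 1.01% of the M1 counts, and the 10 genes with the most counts held 14.4% and 14.3%.

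The labelled cell type and polarization were checked against markers. The 9 macrophage markers sum to 34270 and 36440 CPM (counts scaled to a common library size) in the M1 libraries, with none of them at 0. The 12 markers of IFN-γ and LPS polarization, among them Nos2, Il12b and Cxcl9, sum to 40570 and 37740 CPM, against 61.9 to 164.8 CPM in the 4 M0 and M2 libraries. Neutrophil markers sum to 87.28 and 89.58 CPM and fibroblast markers to 9.212 and 6.971 CPM. Of the fibroblast genes, Dcn held 100 and 39 counts (−1.26), Col1a1 55 and 54, and Col1a2 65 and 64. Lymphocyte markers sum to 0.077 and 0.041 CPM, and erythroid and megakaryocyte markers to 1.006 and 1.12 CPM. In bulk RNA, fewer cells of a type and less RNA per cell cannot be told apart, which holds for every value below.

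Most genes differed little between the 2 M1 libraries. Of the 9940 genes that reached 100 counts in either M1 library, 92% had an absolute log2 ratio under 0.5. The median log2 ratio of all genes measured was −0.02, with quartiles at −0.21 and 0.15. In all, 503 genes were past 2-fold, 171 higher with regorafenib (1.27% of the genes measured) and 332 lower (2.47%). Of those that reached 100 counts, 58 were higher and 118 lower. The interval of 2371 genes (17.6%) lay above 0 and that of 3162 genes (23.5%) below 0. That split rests on the scaling, since total counts per library in place of TMM gave 3063 above and 2572 below. A gene with 1000 counts in each library has an interval of 0.13 on either side of its ratio, and abundant genes have narrower ones, so that an interval away from 0 does not by itself mark a large difference.

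**Figure D1:**
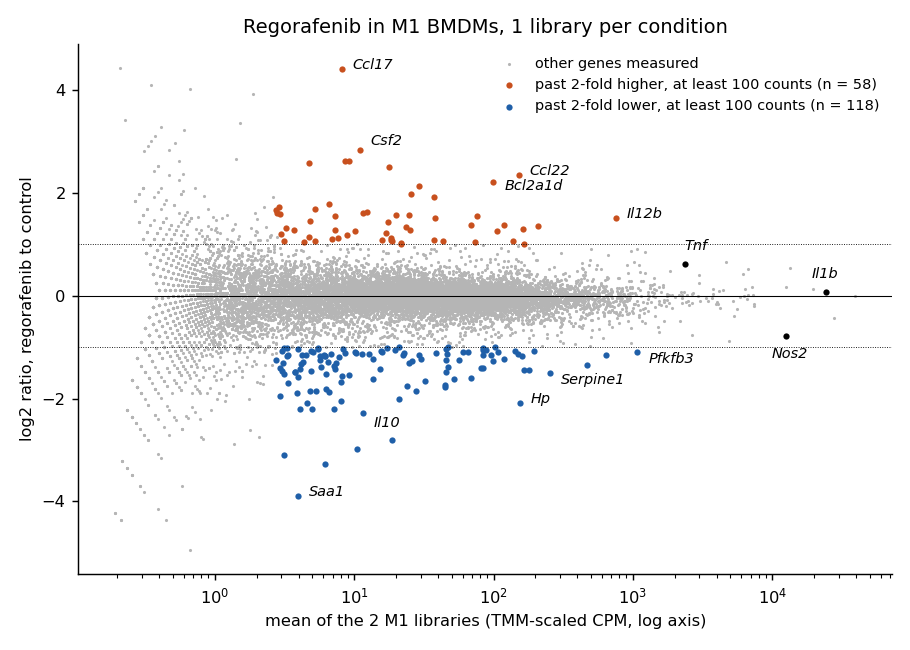
Each point is 1 of the 13440 genes measured, with the mean of its 2 M1 libraries in CPM on a log x axis and its log2 ratio of regorafenib to control on the y axis. Orange and blue points are the 58 higher and 118 lower genes past 2-fold with at least 100 counts, dotted lines mark 2-fold, and black points mark the abundant genes Tnf, Il1b and Nos2, which lie inside it.

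Among the cytokines, those of the IL-12 family stood higher with regorafenib. Il12b, which encodes the p40 chain shared by IL-12 and IL-23, held 10147 and 26829 counts (392.7 and 1113 CPM), a 2.84-fold difference (log2 interval 1.47 to 1.54). Il12a, the p35 chain that completes IL-12, held 3024 and 7248 counts (1.36, interval 1.30 to 1.42). Il23a, the p19 chain that completes IL-23, held 7 and 67 counts (3.36, interval 2.24 to 4.73), a low count in both libraries. The chains of IL-27 differed less, with 1269 and 2018 counts of Il27 (0.77) and 4030 and 4160 of Ebi3 (0.15). All 3 genes of IL-12 and IL-23 were at 3 or fewer counts in every M0 and M2 library, so M1 alone gives a ratio for them.

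Csf2, the gene of the growth factor GM-CSF, held 70 and 462 counts (2.82, interval 2.46 to 3.21), a 7.08-fold higher level with regorafenib. The other colony-stimulating factors were closer together, with a log2 ratio of 0.78 for Csf1 and 0.59 for Csf3. Of the classic inflammatory cytokines, Tnf was higher by a log2 ratio of 0.61 (48221 and 68721 counts) and Il1a by 0.54 (283382 and 384772 counts). Il6 (37404 and 39074 counts, 0.16) and Il1b (609592 and 595706 counts, 0.07) differed less. The lowest ratios of the list were those of Il10, Il19 and an IL-36 gene described below. Il10, the main anti-inflammatory cytokine of macrophages, held 497 and 96 counts (−2.27, interval −2.60 to −1.95). Il19, an IL-10 relative whose gene lies 79730 bases from Il10 on chromosome 1, held 73 and 17 counts (log2 interval −2.86 to −1.23). Il1rn, the antagonist of the IL-1 receptor, held 47283 and 28783 counts (−0.62). Over the 22 cytokine genes measured of 23 listed, 16 intervals lay above 0 and 4 below, against 17.6% and 23.5% over all genes measured. The median log2 ratio of the list was 0.37.

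The IL-36 genes and the IL-1 receptor were also lower. Il1f9, the older symbol for IL-36γ, held 1131 and 293 counts (−1.85, interval −2.04 to −1.66). Its neighbor Il1f6, which encodes IL-36α and lies 21850 bases downstream on chromosome 2, held 957 and 266 counts (−1.75). It stands outside the fixed lists and the 15 lowest ratios, and was chosen as a neighbor after its value was seen. Il1r1, the signaling receptor of IL-1, held 154 and 48 counts (−1.58). The inflammasome sensor Nlrp3 (0.07) and the protease Casp1 (−0.18) differed little, and the adaptor Pycard held 197 and 345 counts (0.91). The list of 19 IL-1 family and inflammasome genes, all measured, had a median of −0.18, with 5 intervals above 0 and 9 below.

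CC chemokines, which attract monocytes and T cells, were higher as a group. Of 12 measured genes of 19 listed, 9 intervals lay above 0 and none below, against 17.6% and 23.5% over all genes measured. The median log2 ratio of 0.75 was the highest of the 47 lists. Ccl17 and Ccl22, both ligands of the T cell receptor CCR4, stood at the top. Ccl17 held 19 and 375 counts (0.735 and 15.6 CPM), which is 21.2-fold higher with regorafenib (log2 ratio 4.40, interval 3.74 to 5.15). With 1 CPM added to both libraries its log2 ratio was 3.25, since its control level was below 1 CPM. Ccl22 held 1295 and 6114 counts (50.1 and 253.7 CPM), 5.06-fold higher (2.34, interval 2.25 to 2.43). The monocyte attractants Ccl2 (19070 and 33467 counts, 0.91) and Ccl7 (5671 and 9429 counts, 0.83) were below the 2-fold line, as were Ccl9 (0.84), Ccl3 (0.66), Ccl4 (0.63) and Ccl5 (0.52). Ccl12 (324 and 335 counts, 0.15, interval −0.08 to 0.37) and Ccl8 (0.15) had intervals that span 0.

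Ccl22, Cx3cl1 and Ccl17 lie next to each other on chromosome 8, from 94745590 to 94812036 (GRCm38), in the same orientation, with gaps of 20310 and 28026 bases. Cx3cl1, the membrane-bound chemokine fractalkine, held 63 and 359 counts (2.61, interval 2.22 to 3.02). All 3 genes of the cluster were thus past 2-fold higher in M1. Their promoters are shown because all 3 neighbors were higher. The sequences are from RefSeq (GRCm38.p6), plus strand, 250 bases before the start and 50 after. Capitals mark the spaced palindrome of STAT6, which among the 3 is found in Ccl17, 154 bases before its start. Ccl17 also holds 1 match, not marked, of the palindrome TTCNNNGAA of most STAT factors, and the other 2 hold neither.
Ccl22 (chr8:94745434-94745733): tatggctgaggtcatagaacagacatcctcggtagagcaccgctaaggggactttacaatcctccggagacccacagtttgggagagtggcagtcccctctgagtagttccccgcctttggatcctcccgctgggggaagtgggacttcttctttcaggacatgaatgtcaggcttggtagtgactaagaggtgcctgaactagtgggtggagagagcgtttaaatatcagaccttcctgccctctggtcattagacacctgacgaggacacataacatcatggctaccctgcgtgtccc
Cx3cl1 (chr8:94771930-94772229): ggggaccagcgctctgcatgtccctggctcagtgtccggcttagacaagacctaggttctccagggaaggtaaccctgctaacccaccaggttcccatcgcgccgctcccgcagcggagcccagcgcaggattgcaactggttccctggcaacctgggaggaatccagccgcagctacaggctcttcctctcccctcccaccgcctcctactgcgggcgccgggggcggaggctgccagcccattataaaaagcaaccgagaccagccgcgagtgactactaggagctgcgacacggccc
Ccl17 (chr8:94810203-94810502): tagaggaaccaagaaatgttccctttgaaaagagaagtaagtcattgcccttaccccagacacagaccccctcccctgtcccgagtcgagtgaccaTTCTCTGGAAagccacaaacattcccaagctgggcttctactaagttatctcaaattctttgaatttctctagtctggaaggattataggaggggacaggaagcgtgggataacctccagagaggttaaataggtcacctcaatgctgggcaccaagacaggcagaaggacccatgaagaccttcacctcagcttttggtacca

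In the list of CXC, CX3C and XC chemokines, which holds Cx3cl1, 1 gene was past 2-fold lower. Cxcl5, a neutrophil attractant, held 873 and 202 counts (−2.01, interval −2.24 to −1.79). The other neutrophil attractants Cxcl1 (55487 and 54329 counts, 0.07), Cxcl2 (0.42) and Cxcl3 (−0.09), and the interferon-induced Cxcl9 (0.19), Cxcl10 (0.40) and Cxcl11 (0.33), lay within 2-fold. The 12 measured genes of 15 in this list, Cx3cl1 included, had 7 intervals above 0 and 4 below, with a median of 0.13. The chemokine receptors had a median of −0.49 over 11 measured genes of 20 listed (2 intervals above 0, 4 below), which was −0.23 over members with at least 100 counts and −0.18 with 1 CPM added. Xcr1, the receptor of the chemokine XCL1, was past 2-fold higher with 36 and 102 counts. Cx3cr1, the receptor of fractalkine, held 83 and 24 counts (−1.69), Cxcr4 388 and 194 (−0.90), and Ccr1 2024 and 1104 (−0.77).

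Genes of dendritic cell maturation, a program of antigen presentation and T cell stimulation, were higher in number. Of 24 measured genes of 25 listed, 7 were past 2-fold higher, against 1.27% of all genes measured, and none lower. Intervals lay above 0 for 17 and below for 4, against 17.6% and 23.5% over all genes measured. The median was 0.56 (0.33 over members with at least 100 counts). The 7 were Ccl17, Ccl22, Il12b, Socs2 (4 and 23 counts), Slco5a1 (8 and 20 counts), Icosl and Il4i1. Icosl, the ligand of the T cell costimulator ICOS, held 2438 and 5604 counts (1.30, interval 1.23 to 1.37). Il4i1, an enzyme that breaks down aromatic amino acids, held 379 and 860 counts (1.28), and Nup62 overlaps it on the same strand. The costimulators Cd40 (8957 and 15600 counts, 0.90) and Cd80 (607 and 981 counts, 0.79) were higher by less, Cd86 was level (888 and 815 counts, −0.02), and the checkpoint ligand Cd274 held 43548 and 35597 counts (−0.19). Ccl17, Ccl22, Il12b, Socs2 and Icosl count in other lists too.

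The 9 markers of dendritic cells sum to 4.606 and 6.888 CPM, and 2 of them had at least 10 counts. The higher sum came from Xcr1 alone, a receptor of cross-presenting dendritic cells with 36 and 102 counts (1.60). The other markers detected held fewer counts with regorafenib, with 61 and 55 of Ccr9, 9 and 5 of Zbtb46, 6 and 1 of Clec10a, 4 and 1 of Itgae and 3 and 2 of Flt3. Clec9a, Cd209a and Siglech were at 0 in both M1 libraries, where 3 counts, the limit that 0 allows, are 0.116 and 0.124 CPM. The part of such cells in the values of the list was not tested.

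MHC class II genes, whose products present antigen to CD4+ T cells, were mostly higher with regorafenib, and class I genes were split. Among 11 measured class II genes of 12 listed, 9 intervals lay above 0 and 1 below, against 17.6% and 23.5% over all genes measured. Their median was 0.60. H2-Ob, a chain of the H2-O modulator of peptide loading, held 67 and 381 counts (2.61). The classical chains H2-Eb1 (2346 and 3978 counts, 0.86), H2-Aa (4014 and 6062 counts, 0.69) and H2-Ab1 (9366 and 12444 counts, 0.51) and the invariant chain Cd74 (18600 and 26278 counts, 0.60) formed a narrow range. Ciita, the class II transactivator, held 495 counts in each library, and the protease Ctss was at −0.18. The 20 class I genes had a median of 0.02, with 9 intervals above 0 and 8 below, and H2-Q7 (723 and 337 counts) was the 1 gene past 2-fold, and it shares sequence with other Q genes.

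The genes Cish, Il2ra and Cd247, among the 15 highest ratios, are known from cytokine and T cell receptor signaling. Cish, a feedback inhibitor of STAT5 signaling, held 269 and 982 counts (1.97, interval 1.77 to 2.17). Il2ra, the high-affinity chain of the IL-2 receptor, held 35 and 195 counts (2.58, interval 2.05 to 3.14, and 1.95 with 1 CPM added). Cd247, the zeta chain of the T cell receptor complex, held 280 and 1150 counts (2.14), while Cd3e and Cd3g were at 0 in both libraries. An antisense and a same-strand gene overlap Cd247, and its count may hold their reads. Among 21 genes of the STAT and SOCS list the median was 0.02 (−0.08 over members with at least 100 counts), with 9 intervals on each side of 0. Stat5a was at 0.40, Stat6 at −0.14 and Stat3, the transducer of IL-10, at −0.43 (12545 and 8661 counts). The palindrome of most STAT factors, TTCNNNGAA, was in 8.37% of the genes measured. Among genes past 2-fold higher with at least 100 counts it was in 4.35%. The promoter of Cish is shown because it holds 2 matches of it at its start (capitals, plus strand).
Cish (chr9:107296409-107296708): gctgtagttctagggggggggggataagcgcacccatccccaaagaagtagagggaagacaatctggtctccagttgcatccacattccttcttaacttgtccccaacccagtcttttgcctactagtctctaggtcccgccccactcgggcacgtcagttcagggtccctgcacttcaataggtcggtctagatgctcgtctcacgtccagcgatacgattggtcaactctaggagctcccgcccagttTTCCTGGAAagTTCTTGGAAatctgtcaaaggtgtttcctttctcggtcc

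Of the Bcl-2 family, the survival genes of the A1 group were higher and a death gene was lower. Bcl2a1d held 921 and 3951 counts (2.20, interval 2.10 to 2.31), Bcl2a1a 1005 and 2729 (1.54) and Bcl2a1b 156 and 446 (1.62). These copies share 54.7%, 43.5% and 56.8% of their 100-base words with other genes, so how reads were split among them is uncertain. Bcl2l11, which encodes the death protein BIM, held 2991 and 1261 counts (−1.15, interval −1.24 to −1.05). Mcl1, another survival gene, held 24220 and 15536 counts (−0.54), and Bcl2l1 was at 0.35. The 16 measured genes of 18 listed had a median of 0.20, with 6 intervals above 0 and 4 below. The promoter of Bcl2a1d is given on the minus strand with an AP-1 match (TGANTCA, capitals) 114 bases before the start. Bcl2a1a and Bcl2a1b hold the motif too, as do 6.39% of the genes measured that have a promoter given.
Bcl2a1d (chr9:88731801-88732100): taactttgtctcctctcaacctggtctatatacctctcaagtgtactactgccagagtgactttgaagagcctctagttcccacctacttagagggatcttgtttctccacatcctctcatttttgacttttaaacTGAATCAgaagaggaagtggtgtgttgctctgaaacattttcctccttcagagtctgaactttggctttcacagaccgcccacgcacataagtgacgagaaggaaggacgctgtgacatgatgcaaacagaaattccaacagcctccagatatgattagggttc

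**Figure D2:**
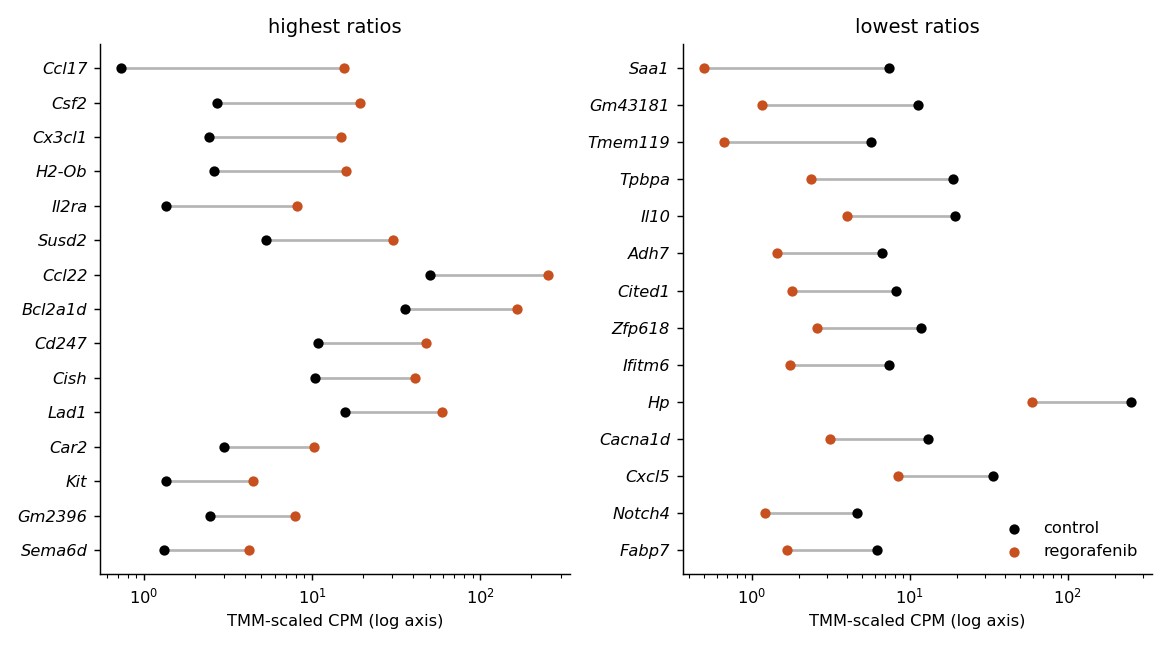
Levels in CPM on a log x axis of the 15 genes with the highest (left) and 14 of the 15 with the lowest (right) log2 ratio among genes past 2-fold with at least 100 counts, with the control library in black and the regorafenib library in orange. Ccl17 spans 0.735 to 15.6 CPM at the top left, and Hp, at 251.2 and 59.3 CPM, is the most abundant gene on the right.

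Of the genes of arginine use, nitric oxide and itaconate, Nos2 was lower with regorafenib by less than 2-fold. Nos2, the inducible nitric oxide synthase and a defining M1 gene, held 410649 and 221627 counts (15890 and 9196 CPM), which is 1.73-fold lower (−0.79, interval −0.80 to −0.78). Acod1, which makes itaconate, held 163628 and 151364 counts (−0.01). The 11 genes of the list had a median of −0.04, with 2 intervals above 0 and 7 below.

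Acute phase and antimicrobial genes had the lowest median of the 47 lists, −0.50, over 17 measured genes of 22 listed. Of their intervals 3 lay above 0 and 10 below, against 17.6% and 23.5% over all genes measured. Saa1, a serum amyloid A gene, held 191 and 12 counts (−3.89, interval −4.87 to −3.05, and −2.49 with 1 CPM added), the lowest ratio among genes with at least 100 counts. It shares 8.96% of its 100-base words with Saa2, which held 10 and 2 counts. Saa3, the form that macrophages make, held 826553 and 571676 counts (−0.43). Hp, which encodes the hemoglobin scavenger haptoglobin, held 6489 and 1429 counts (−2.08). S100a8, a calcium-binding alarmin, held 1804 and 489 counts (−1.78), and Slpi, an inhibitor of neutrophil proteases, 2668 and 818 (−1.60). Fpr1, a receptor for bacterial peptides, was lower by less (−0.89), and Lcn2, which withholds iron from bacteria, was higher (32293 and 38099 counts, 0.34). Neutrophil markers, which some of these genes accompany in other tissues, sum to 87.28 and 89.58 CPM, nearly all of it Mpo (82.98 and 85.64 CPM). Camp held 108 and 91 counts and was the 1 other marker with at least 10, with Ly6g, Elane and Cxcr2 at 0 in both libraries.

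The metallothioneins Mt2 and Mt1, small proteins that bind zinc and copper, lie 5514 bases apart on chromosome 8 and were both past 2-fold lower. Mt2 held 6841 and 2330 counts (−1.45, interval −1.52 to −1.39) and Mt1 5697 and 2348 counts (−1.18, interval −1.25 to −1.11). Their transcription factor Mtf1 held 1326 and 1093 counts (−0.18), and the zinc importer Slc39a14 1745 and 1115 (−0.55). The promoters of both genes are shown with the metal response element, searched as TGCGCNC or TGCACNC, in capitals (plus strand). Mt2 holds 4 matches on either strand and Mt1 3. At least 1 match was in 40.1% of the genes measured in M1 and in 28.2% of all 27025 genes with a promoter given.
Mt2 (chr8:94172368-94172667): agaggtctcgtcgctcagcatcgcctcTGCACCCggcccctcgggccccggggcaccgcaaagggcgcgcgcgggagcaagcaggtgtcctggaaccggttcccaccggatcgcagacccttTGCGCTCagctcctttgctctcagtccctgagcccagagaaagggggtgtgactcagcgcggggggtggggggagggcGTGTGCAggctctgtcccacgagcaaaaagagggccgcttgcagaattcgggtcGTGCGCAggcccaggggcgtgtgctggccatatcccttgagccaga
Mt1 (chr8:94178839-94179138): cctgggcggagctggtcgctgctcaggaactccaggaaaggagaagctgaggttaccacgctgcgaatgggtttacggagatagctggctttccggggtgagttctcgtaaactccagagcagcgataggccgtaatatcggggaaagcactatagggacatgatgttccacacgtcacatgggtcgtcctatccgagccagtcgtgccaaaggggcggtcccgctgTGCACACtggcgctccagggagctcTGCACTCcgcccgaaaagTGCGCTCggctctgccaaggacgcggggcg

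Nrf2 target genes, which defend against oxidants, had a median of −0.43. Of the 18 measured intervals (19 listed), 16 lay below 0 and none above, against 23.5% and 17.6% over all genes measured. The lowest were Nqo1, a quinone reductase (370 and 176 counts, −0.97), Prdx1, a peroxide reductase (163274 and 82469 counts, −0.89), Slc7a11, the cystine importer (19989 and 10543 counts, −0.82) and Hmox1, heme oxygenase (86691 and 47804 counts, −0.76). Srxn1 (−0.75), Gclm (−0.66) and Txnrd1 (−0.37) were lower by less. None was past 2-fold. The ferritin chain Fth1 (−0.01) and the pentose phosphate enzyme Tkt (−0.01) were level. Iron handling genes, which share Hmox1 and the ferritins with this list, had a median of −0.18 over 12 measured of 14, with 1 interval above 0 and 8 below.

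Glycolysis and hypoxia genes were mostly lower. All 24 listed genes were measured, and the median was −0.31. Of their intervals 22 lay below 0 and none above, against 23.5% and 17.6% over all genes measured. Pfkfb3, which makes the activator of phosphofructokinase, held 37896 and 16557 counts (−1.09, interval −1.12 to −1.07). The antisense gene Gm10851 lies within it and was lower as well. The HIF-1 targets Adm (955 and 464 counts, −0.94), Ndrg1 (13101 and 6376 counts, −0.94) and Egln3 (−0.77), and the glucose transporter Slc2a1 (37178 and 24075 counts, −0.53), followed. Of the enzymes of glycolysis, Ldha was at −0.25, Pkm at −0.26, Gapdh at −0.12 and Aldoa at 0.00. Hif1a itself held 11158 and 8431 counts (−0.30). Vegfa, an angiogenic factor induced by hypoxia that stands in another list, held 6070 and 3026 counts (−0.90). Pgk1 (−0.13) shares 51.7% of its words with other copies and is uncertain.

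**Figure D3:**
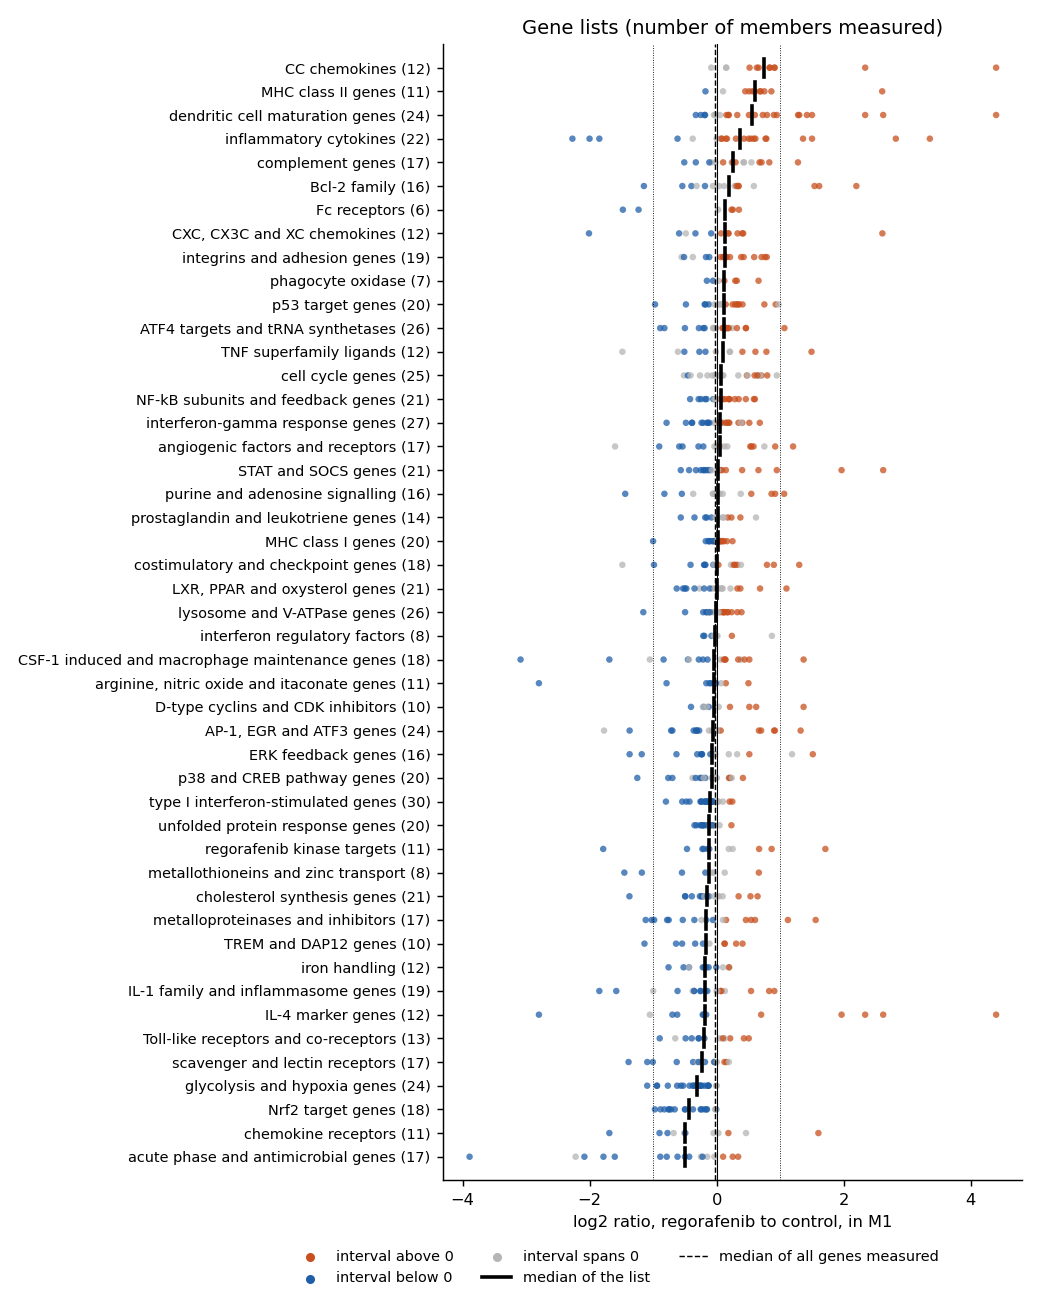
Each row is 1 of the 47 gene lists, with a point for the log2 ratio (x axis) of each member measured, colored by whether its interval lies above 0 (orange), below 0 (blue) or spans 0 (grey), a black bar at the list's median and a dashed line at the median of all genes (−0.02). CC chemokines (0.75) are at the top, and the Nrf2 (−0.43) and acute phase (−0.50) lists lie near the bottom.

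The 27 interferon-γ response genes, all measured, had a median of 0.06, near that of all genes measured (−0.02). Their intervals lay away from 0 more often, with 13 above and 9 below, against 17.6% and 23.5% over all genes measured. None was past 2-fold. Socs1 (0.06), Cxcl9 (0.19) and the immunoproteasome subunits Psmb8 (0.04) and Psmb9 (0.06) lay within narrow limits. Members of the immunity-related GTPases were lower, among them Igtp (10488 and 6997 counts, −0.48), Iigp1 (−0.39) and Irgm2 (−0.39), whereas the guanylate-binding proteins Gbp4 (0.34) and Gbp5 (0.20) were higher. Type I interferon-stimulated genes had a median of −0.10 over 30 genes, with 2 intervals above 0 and 21 below. The lowest were Rsad2, the antiviral protein viperin (16421 and 8801 counts, −0.80), Isg20 (−0.54) and Cmpk2 (−0.48), while Isg15 (−0.06) and Irf7 (−0.08) were near 0. With total counts as the scaling every ratio is 0.04 higher, which is close to the distance of these smaller ratios from 0.

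The NF-κB list (21 genes) had a median of 0.07, with 11 intervals above 0 and 6 below. The subunits Nfkb2 (10016 and 14035 counts, 0.59) and Nfkb1 (9913 and 12719 counts, 0.46) and the adaptor Traf1 (0.60) were higher. Rela (0.00) and Relb (0.05) were level, and the feedback genes Tnip3 (−0.42), Bcl3 (−0.28) and Tnfaip3 (−0.16) were lower. Unfolded protein response genes (20 genes) had a median of −0.11, with 1 interval above 0 and 15 below, none beyond −0.35.

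The pathway that the study follows runs from p38 MAP kinase through Creb1 to Klf4. In M1 Mapk14, which encodes p38α, held 3431 and 3675 counts (0.20), and Creb1 1259 and 1177 counts (0.00, interval −0.11 to 0.12). Klf4, a transcription factor of M2 polarization, held 325 and 187 counts (−0.70, interval −0.96 to −0.43). RNA levels do not measure phosphorylation. The phosphatase Dusp1, which switches off p38, held 2057 and 807 counts (−1.25, interval −1.37 to −1.13), and Zfp36, the mRNA decay factor tristetraprolin, 4270 and 2349 (−0.76). Over 20 measured genes of 22 listed, 3 intervals lay above 0 and 8 below, with a median of −0.07.

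ERK feedback genes, often read as a sign of ERK activity, had more intervals below 0 than above. Among the 16 genes, 2 intervals lay above 0 and 8 below, with a median of −0.07, which was −0.23 over members with at least 100 counts. The AP-1 subunit Fosl1 (269 and 97 counts, −1.37), Spred3 (119 and 49 counts, −1.18) and the ERK phosphatase Dusp6 (2261 and 1360 counts, −0.63) were lower. Spry1 held 15 and 40 counts (1.51) and Egr1 240 and 218 (−0.04). The 24 AP-1, EGR and ATF3 genes had 6 intervals above 0, 8 below and 10 that span it, with a median of −0.05. Fos (913 and 518 counts, −0.72) and Atf3 (14133 and 10260 counts, −0.36) were lower. Batf3 held 15 and 35 counts (1.32), Fosb 11 and 3, and Batf, the partner of interferon regulatory factors in activated cells, held 1113 and 1960 counts (0.92).

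Of the 18 listed kinases that regorafenib inhibits, 11 were measured, with 3 intervals above 0 and 6 below. Csf1r, the receptor of CSF-1, held 49500 and 41775 counts (−0.14, interval −0.16 to −0.13). The receptor genes Kit (35 and 107 counts, 1.71), Kdr (377 and 641 counts, 0.87) and Pdgfrb (404 and 599 counts, 0.67) were higher, and Flt1 held 37 and 10 counts (−1.79). Braf (−0.12) was near the median. Kit is also a marker of mast cells, and the other 6 mast cell and basophil markers were at 0 in both M1 libraries.

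Genes induced by CSF-1 or tied to resting macrophages were split, with a median of −0.04 over 18 measured of 20 (0.06 over members with at least 100 counts), and 7 intervals on each side of 0. Tmem119 held 146 and 16 counts (−3.09, interval −3.93 to −2.34, and −1.999 with 1 CPM added). Ccnd2, a D-type cyclin, held 1723 and 4155 counts (1.37, interval 1.29 to 1.45). Adgre1, which encodes F4/80, was level (158131 and 162165 counts, 0.14). Cell cycle genes (25 measured of 30) had a median of 0.07, with 5 intervals above 0, 1 below and 19 that span it. Mki67 held 1589 and 2417 counts (0.70) and Pcna 3175 and 2164 (−0.45).

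Receptors of the cell surface were split within families. The high-affinity Fc receptor Fcgr1 held 4314 and 1715 counts (−1.23) and Fcgr4 1728 and 579 (−1.48), whereas Fcgr3 (5662 and 6302 counts, 0.26) and the shared chain Fcer1g (0.23) were higher and Fcgr2b was level (0.02). Their median over 6 measured of 8 listed was 0.13, with 3 intervals above 0 and 2 below, and without the count filter it was −0.44. The C-type lectins Clec4a2 (1754 and 625 counts, −1.39) and Clec4n, the receptor Dectin-2 (2111 and 923 counts, −1.09), lie 85844 bases apart on chromosome 6. Colec12 (3553 and 1651 counts) and Cd36 (−0.63) were lower too, while Clec4e (−0.04) and Stab1 (0.15) differed little, and the median of 17 measured scavenger and lectin receptors of 18 was −0.23 (2 above, 9 below). In the TREM and DAP12 list Cd300lb was lowest (455 and 193 counts, −1.14), and the median was −0.16 over 10 measured of 12 (4 intervals above 0, 5 below). Toll-like receptors had a median of −0.19 over 13 measured of 17 (4 intervals above 0, 6 below), with Tlr2 at 0.43, Tlr4 at 0.21 and Tlr13 at −0.90.

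IL-4 marker genes did not share a direction in M1. Of 21 listed genes 12 were measured, 4 past 2-fold higher (Ccl17, Ccl22, Cish and Socs2) and 1 lower, with a median of −0.19. Mrc1, which encodes the M2 marker CD206, held 20 and 9 counts (−1.05, interval −2.37 to 0.15), too few to show a difference. Metalloproteinases and inhibitors had a median of −0.16 over 17 genes (−0.29 over members with at least 100 counts), with 6 intervals above 0 and 9 below. The neighbors Mmp8 (1359 and 584 counts, −1.12) and Mmp27 (−1.02) on chromosome 9 and Mmp9 (−0.98) were lower, and Adamts4 (125 and 254 counts, 1.12) and Mmp2 (8 and 22 counts, 1.56) were higher. The adenosine receptors Adora2b (2323 and 4530 counts, 1.06) and Adora2a (1045 and 1775 counts, 0.86), which raise cAMP, were higher, and Nt5e, the ectoenzyme CD73 that makes adenosine, held 32 and 11 counts (−1.44). The 16 measured purine genes of 18 had 4 intervals above 0, 3 below and 9 that span it, with a median of 0.02. Among ATF4 targets Phgdh, the first enzyme of serine synthesis, held 311 and 608 counts (1.07) and shares 28.1% of its words with other copies, with a median of 0.12 over 26 genes (12 intervals above 0, 6 below). Ctsk, a collagen-degrading cathepsin, held 802 and 336 counts (−1.16) in a lysosome list with a median of 0.00 over 26 genes (10 intervals above 0, 7 below). Integrins and adhesion genes (19 measured of 20) had a median of 0.13, led by Icam1 (12562 and 20254 counts, 0.79). Their intervals lay above 0 for 14 and below for 3, against 17.6% and 23.5% over all genes measured.

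The medians of the remaining lists lay between −0.15 and 0.25. They are complement genes (0.25, and 0.04 over members with at least 100 counts), phagocyte oxidase (0.12), p53 targets (0.12), TNF superfamily ligands (0.10, and −0.01 over members with at least 100 counts), angiogenic factors (0.05), prostaglandin and leukotriene genes (0.02), costimulatory and checkpoint genes (0.00), LXR, PPAR and oxysterol genes (0.00), interferon regulatory factors (−0.03), D-type cyclins and CDK inhibitors (−0.04), AP-1, EGR and ATF3 genes (−0.05), regorafenib kinase targets (−0.12, and 0.10 without the count filter), metallothioneins and zinc transport (−0.12) and cholesterol synthesis genes (−0.15). The members past 2-fold in these lists, apart from those named above, were Ltb (27 and 71 counts), Serping1 (15 and 34), Hgf (47 and 101) and Gpr183 (24 and 48), all higher, and Fdps (25 and 9), which was lower. Within them, the oxidase subunit Ncf1 held 20464 and 30166 counts (0.66), the oxysterol enzyme Ch25h 2834 and 1870 (−0.50), and Apoe, a carrier of cholesterol, 617 and 613 (0.09).

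The other genes with the largest ratios belong to no list. On the higher side, Susd2, a membrane protein with sushi domains, held 138 and 728 counts (2.50), Lad1, an anchoring filament protein, 403 and 1418 (1.92), Car2, carbonic anhydrase 2, 77 and 246 (1.78), Gm2396 64 and 191 (1.68) and Sema6d, a semaphorin, 34 and 101 (1.67). On the lower side, Gm43181 held 290 and 28 counts (−3.27, and −2.499 with 1 CPM added) and lies inside Fbxl5 on the same strand, so that its reads may belong to that gene. Tpbpa, a gene named for the placenta, held 483 and 57 counts (−2.98), Adh7, an alcohol dehydrogenase that oxidizes retinol, 173 and 35 (−2.21), and Cited1, a transcriptional coactivator, 212 and 43 (−2.20). The zinc finger gene Zfp618 held 305 and 62 counts (−2.20), Ifitm6, of a family of interferon-induced membrane proteins, 191 and 42 (−2.08), and the calcium channel gene Cacna1d, which Dcp1a overlaps on the other strand, 334 and 75 (−2.06). Notch4, a Notch receptor, held 120 and 29 counts (−1.95, and −1.36 with 1 CPM added) and Fabp7, a fatty acid-binding protein, 159 and 40 (−1.89).

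The ratios of the 176 genes past 2-fold in M1 with at least 100 counts were set beside those in M0 and M2, which come from other libraries. Of these genes, 52 were past 2-fold in M0, where 18.5% of the genes measured were, and 47 in M2, where 9.34% were. There were 103 past 2-fold in neither, and 30 had under 10 counts in all 4 M0 and M2 libraries. Genes with few counts outside M1 could hardly pass there. The differences between states were not tested. A set of 13 genes was past 2-fold in the same direction in all 3 states. It includes Il10 (log2 ratios −2.27 in M1, −2.69 in M0 and −2.22 in M2, at 0.393 to 1.84 CPM in M2 against 3.98 to 19.2 CPM in M1), Fcgr1 (−1.23, −1.48 and −1.25), Fosl1 (−1.37, −4.20 and −1.43) and the gap junction gene Gja1 (−1.16, −2.18 and −2.98), with Sema6d, St5 and the phospholipase gene Ddhd1 on the higher side. In M0, Il10 held 24 and 4 counts (interval −4.674 to −1.145) and Fosl1 120 and 7 (interval −5.547 to −3.114). Another 12 genes were past 2-fold in M1 and past it in the opposite direction in both M0 and M2. Ccl2, higher in M1 by 0.91, was lower in M0 (−6.34) and M2 (−5.18), and the class II gene H2-Eb1 was higher in all 3 states (0.86, 2.86 and 2.45).

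**Figure D4:**
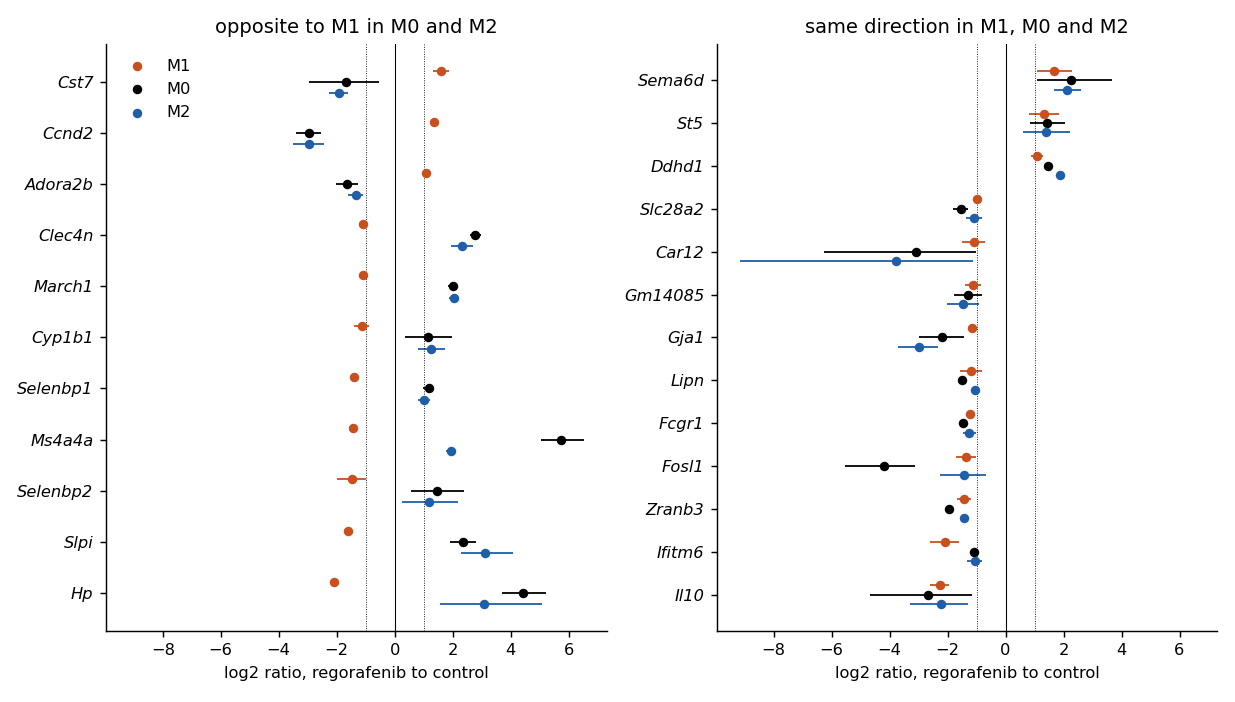
Log2 ratios of regorafenib to control (x axis) in M1 (orange), M0 (black) and M2 (blue) with 95% counting intervals as lines, for 11 of the 12 genes past 2-fold in the opposite direction in M0 and M2 (left) and the 13 genes in the same direction in all 3 states (right). Ccnd2 stands at 1.37 in M1 against −2.96 in M0 and −2.95 in M2, and Il10 lies between −2.69 and −2.22 in all 3.

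The promoters of the genes past 2-fold were searched for the motifs of 7 factors on both strands. A promoter was given for 9677 of the genes measured, for 117 genes past 2-fold higher and for 208 lower. The AP-1 motif TGANTCA was in 12.8% of the higher and 13.9% of the lower genes, against 6.39% of the genes measured and 8.97% of all promoters. The STAT motif TTCNNNGAA was in 7.69% and 9.13% (8.37% of the genes measured) and the STAT6 motif, which differs from it by 1 base of spacing, in 6.84% and 6.25% (6.55%). The NF-κB motif was in 3.42% and 2.4% (3.41%) and the interferon-stimulated response element in 2.56% and 4.81% (4.04%). The cAMP response element TGACGTCA was in 2.56% and 1.44% (3.64%), and the metal response element in 35% and 35.1% (40.1%). Such a match describes letters in a window and not a site in use. Among genes past 2-fold with at least 100 counts, a promoter was given for 46 higher and 88 lower genes. In these AP-1 was in 17.4% and 14.8%, the STAT motif in 4.35% and 11.4%, STAT6 in 13% (6 genes) and 5.68%, and NF-κB in 2.17% and 3.41%. The 8 higher genes with AP-1 include Bcl2a1d, Bcl2a1a and Bcl2a1b, copies that share sequence and are counted separately. The cAMP response element was in 0 and 2 genes, the interferon-stimulated response element in 0 and 3, and the metal response element in 32.6% and 36.4%. With so few genes these shares rest on small counts.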

How the data were processed

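RNA of BMDMs (Illumina TruSeq stranded mRNA, NextSeq 500, paired reads of 100 bases) was measured in 6 conditions with 1 library each, and the M1 libraries were compared here. The authors deposited raw counts per gene, made by their methods and the labels with FastQC, cutadapt 2.4 and STAR 2.7.2a on GRCm38 with Gencode M19. The sources used here do not say from which strand setting the counts were read, so reads of overlapping antisense genes may not be told apart. Nothing says that the libraries are from separate animals or cultures. The sum of a library's counts is its depth, 25359309 to 34898342.

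Names and positions came from Gencode M21 (53229 of 54446 IDs matched with version, 1180 without it, 37 not). Counts were scaled with TMM over the 6 libraries (edgeR 4.0.16, R 4.3.3), a 0 was replaced by 0.5, and 95% intervals are conditional exact (Clopper-Pearson, scipy 1.17.1). Genes needed 10 counts in 1 of the 2 libraries. No test was run, and the ratios and intervals were tested on simulated data. The members, 47 gene lists and 8 marker lists were chosen with earlier results of these data known. Results for some genes are not reported here. Named genes are the 15 highest and 15 lowest ratios past 2-fold with at least 100 counts, genes the study names for its macrophage RNA-seq or pathway, members of lists and markers where described, and genes past 2-fold in the opposite direction in M0 and M2. Shared 100-base words and overlaps came from Gencode M21, and promoters from RefSeq GRCm38.p6. Alternatives were other scalings (DESeq2 1.42.0 size factors among them), count filters, an added CPM and other folds.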

Additional observations from a re-analysis of the deposited data

Results flagged for a closer look

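Of the 176 genes past 2-fold with regorafenib in M1 with at least 100 counts, 12 were past 2-fold in the opposite direction in both M0 and M2. Another 13 were past 2-fold in the same direction in M1, M0 and M2. Of all genes measured in each state, 18.5% were past 2-fold in M0 and 9.34% in M2. Each state has 1 library per condition, so the difference between states was not tested.

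Of the genes higher in M1, Cst7, an inhibitor of lysosomal cysteine proteases, had log2 ratios of 1.60 in M1, −1.69 in M0 and −1.92 in M2. Its M0 ratio rests on 27 and 9 counts. Ccnd2, cyclin D2, had 1.37, −2.96 and −2.95, and Adora2b, the adenosine A2B receptor, 1.06, −1.64 and −1.35.

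The other genes were lower in M1 and higher in M0 and M2. Hp, haptoglobin, had −2.08 in M1, 4.41 in M0 and 3.08 in M2. It held 16 and 365 counts in M0 and 4 and 26 in M2. Slpi, a protease inhibitor, had −1.60, 2.34 and 3.13, from 13 and 87 counts in M2. Selenbp2, with 15 and 44 counts in M0 and 16 and 28 in M2, had −1.48, 1.45 and 1.19. Its close copy Selenbp1 had −1.41, 1.17 and 1.01. Selenbp2 and Selenbp1 share 17.4% and 18.9% of their 100-base words, so part of their reads is uncertain. Ms4a4a, a membrane protein of macrophages, had −1.45, 5.74 and 1.94, from 17 and 974 counts in M0. Cyp1b1, a cytochrome P450, had −1.14, 1.13 and 1.26, from 20 and 47 counts in M0. March1, a ubiquitin ligase that removes MHC class II from the surface, had −1.10, 2.01 and 2.03, and the lectin gene Clec4n −1.09, 2.78 and 2.32.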

How the results depend on the processing

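The numbers of genes past 2-fold moved with the filter, the added value and the fold. With at least 100 counts they were 58 higher and 118 lower, with 1 CPM added to both libraries 53 and 101, at 1.5-fold 393 and 694, and at 4-fold 40 and 80. Without a filter they were 181 and 368. The 4 other scalings gave 167 to 191 higher and 304 to 359 lower genes and moved the median of all genes to between −0.04 and 0.02. Genes with intervals above 0 numbered 2093 to 3063 and those below 2572 to 3456 under these scalings. Of 717 list genes measured, at most 55 had an interval that changed between above, below and spanning 0. At most 2 went from 1 side of 0 to the other. No list median moved by over 0.1 with another scaling, but of the 47 medians 8 did so over members with at least 100 counts, 7 without a filter and 1 with 1 CPM added. Of 70 named genes, 10 had a log2 ratio outside its counting interval with 1 CPM added, all with a level of a few CPM in 1 library, and 0 to 7 with another scaling. The ERK feedback median was then −0.23 and that of metalloproteinases −0.29 with 100 counts. The medians of TNF ligands, STAT and SOCS genes and CSF-1 genes, all near 0, changed sign with that filter (−0.01, −0.08 and 0.06). Without a count filter the median of Fc receptors became −0.44 and that of regorafenib kinase targets 0.10, both opposite in sign, since genes of few counts entered. Each condition has 1 library, so leaving out a replicate was not possible, and counting intervals do not hold the spread between cultures. Genes with under 100 counts, such as Il23a and Socs2, are the least certain.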
